A study of Mus musculus with 4 samples.

Results

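Insulin signalling and glucose transport were followed through 9 genes, chosen by function but with earlier results of these data known. They begin with the receptor gene Insr, the docking protein genes Irs1 and Irs2, and the phosphoinositide 3-kinase subunit gene Pik3r1. The others were the kinase genes Akt1 and Akt2, the transcription factor gene Foxo1, and the glucose transporter genes Slc2a1 and Slc2a4. All 9 were found among the 22463 gene symbols of the deposited tables, each as the RefSeq transcript with most reads. Levels are given as RPKM, reads scaled to exon length and to the mapped reads of the library, and a gene was taken as expressed where it passed 1 RPKM in at least 1 of the Ad-GFP libraries. The 9 genes all passed that level, as did 11541 genes in all, but Slc2a4 passed it only through the day 2 library, in which it was high.

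As background, insulin binds the receptor tyrosine kinase INSR, which phosphorylates the docking proteins IRS1 and IRS2, and these recruit the PI3K regulatory subunit encoded by Pik3r1 together with its catalytic partner. The lipid product of PI3K brings AKT1 and AKT2 to the membrane, where AKT phosphorylates FOXO1, which then leaves the nucleus, and lets vesicles carrying the glucose transporter GLUT4 (Slc2a4) reach the cell surface. GLUT1 (Slc2a1) resides at the surface and serves basal uptake, whereas GLUT4 is the insulin-responsive transporter of fat and muscle and is a late marker of the fat cell programme.

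RNA-Seq was done on a single line of brown preadipocytes, isolated from interscapular brown fat of C57BL/6J embryos at E18.5, carrying Mll3-/- Mll4 f/f and made immortal by a retrovirus expressing SV40 large T. MLL3 and MLL4 (genes Kmt2c and Kmt2d) are histone H3K4 methyltransferases. Cells received adenoviral GFP (Ad-GFP, genotype Mll3-/-, labelled WT although its genotype is Mll3-/- too) or adenoviral Cre (Ad-Cre, genotype Mll3-/- Mll4-/-), and the comparison asked how gene expression before and during adipogenesis depends on MLL4. Each was sampled at day 0, before induction, and at day 2 of a cocktail of insulin at 0.02 mM, T3, indomethacin, dexamethasone and IBMX, so the ligand of this pathway is itself part of what separates day 2 from day 0. With 1 library per condition, 4 in all, no difference has a replicate check and no test between conditions was possible. The intervals below are exact binomial 95% intervals that cover the counting error of reads only, and a ratio past 2.5-fold (1.32 on the log2 scale) is called higher or lower, without a p-value. Where 2 values are given for an arm, the first is day 0 and the second day 2.

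The library totals behind the RPKM values ran from 17198448 to 22986362 mapped reads, and the reads summed over transcripts were 96.1% to 99.4% of that total in 3 libraries and 87.8% in Ad-Cre cells at day 2. That last library also stood apart by transcript length and base composition. Its log2 ratio to Ad-GFP at day 2 had a median of 0.49 in the shortest of 20 equal bins of expressed genes (30 to 695 bases) and of -0.81 in the longest (7356 to 23495 bases). Over GC content the bin medians went from -0.71 to 0.69. The median over all expressed genes was -0.16 in this comparison and -0.01 after TMM scaling. Several of the 9 transcripts are long, so each Ad-Cre ratio at day 2 is also given after division by the median ratio of genes of like length and GC content. With 1 library per condition, a trend of that library and a trend of the condition cannot be told apart. The divided values are therefore a second form of the ratios and not a correction. Kmt2d was at 18.49 and 18.72 RPKM in Ad-GFP and at 16.3 and 15.7 RPKM in Ad-Cre at day 0 and day 2. Kmt2c still had reads, at 1.80 and 3.17 RPKM in Ad-GFP and at 1.41 and 1.49 RPKM in Ad-Cre. A level over the whole transcript does not show a deleted or disrupted part, so it checks neither allele. All 6 adipocyte markers looked at rose in both arms, their summed level going from 30.4 to 1999 RPKM in Ad-GFP and from 15.7 to 490.4 RPKM in Ad-Cre. Of 6 brown fat markers, Ucp1, Cidea, Ppargc1a and Dio2 were at 0 or near it in every library, and only Ebf2 passed 1 RPKM in all 4. Of 5 preadipocyte markers, 5 were over 1 RPKM in each Ad-GFP library, against 3 and 4 in Ad-Cre at day 0 and day 2, their sum going from 325.5 to 105.3 RPKM in Ad-GFP and from 143.7 to 69.9 RPKM in Ad-Cre. All 5 fell in Ad-GFP. In Ad-Cre the sum was mostly Pdgfrb (123.2 and 41.9 RPKM), which fell with Pdgfra (9.72 and 6.25 RPKM). Dlk1 (10.15 and 17.9 RPKM), Cd34 (0.352 and 2.98 RPKM) and Ly6a (0.248 and 0.871 RPKM) rose there. At day 0 Pdgfrb was higher in Ad-Cre, and the other preadipocyte markers were lower in it, past the cutoff. The markers found for macrophages, endothelium, skeletal muscle and hepatocytes were all below 1 RPKM. Of 5 macrophage markers 4 were found, and Cd68 was not. Fewer cells of a type and less RNA per cell cannot be told apart in these bulk samples, and the part of the marker changes in the values below was not tested.

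**Figure D1:**
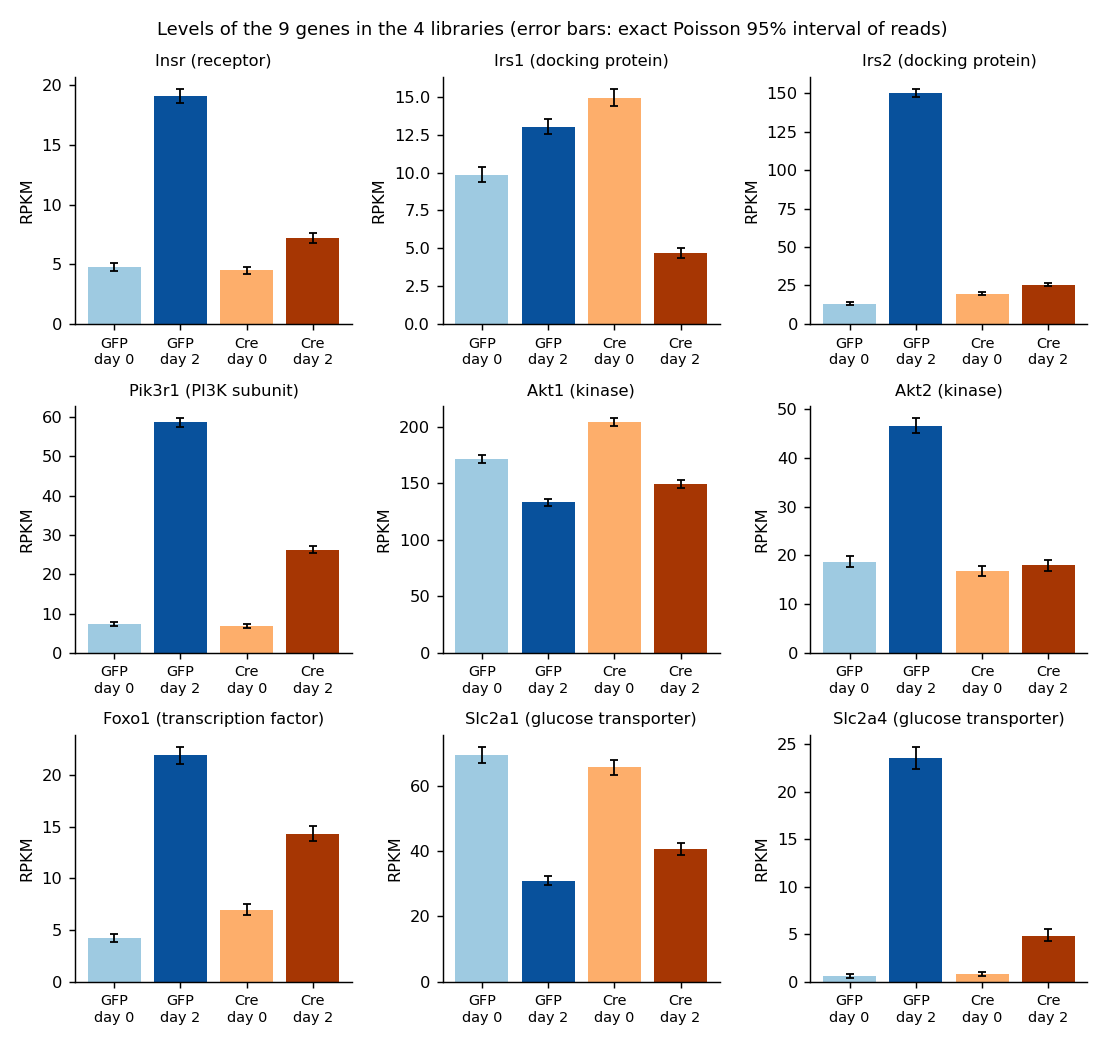
Level in RPKM (vertical axes, each from 0) of the 9 genes in the 4 libraries; bars are single libraries and error bars the exact Poisson 95% interval of the reads. Insr, Irs2, Pik3r1, Akt2, Foxo1 and Slc2a4 stood highest in Ad-GFP at day 2, whereas Slc2a1 stood highest in Ad-GFP at day 0 (69.6 RPKM) and Akt1 and Irs1 in Ad-Cre at day 0.

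The genes differ in length and in how cleanly their reads can be placed. On NCBI37/mm9, in the GENCODE vM1 annotation, Insr lies on the minus strand at chr8:3150922-3279617 with 21 exons, Irs2 on the minus strand at chr8:10986980-11008458 with 2 exons, and Irs1 on the minus strand at chr1:82229676-82287991 with 2 exons. Pik3r1 lies on the minus strand at chr13:102450716-102538172 (16 exons), Akt1 on the minus strand at chr12:113892032-113913095 (14 exons), Akt2 on the plus strand at chr7:28376571-28425845 (15 exons), and Foxo1 on the plus strand at chr3:52072259-52154031 (3 exons). Slc2a1 lies on the plus strand at chr4:118781316-118809935 (10 exons) and Slc2a4 on the minus strand at chr11:69756045-69761690 (11 exons). The counted exon length was 9355 bases for Insr and 9163 for Irs1, but 2572 for Slc2a1 and 2690 for Akt1. Of the 50-base windows along Akt2, 84.1% match another place in the genome with up to 2 mismatches, and 50.3% have an exact match elsewhere. Each of the 84.1% has a match in or near the pseudogene Akt2-ps (annotated at chr11:16414536-16415984), so the Akt2 level is uncertain. Windows matching another place with up to 2 mismatches made up 6.79% of Akt1, 1.75% of Pik3r1 and under 1% of each other gene. Gene models on the opposite strand overlap exons of Irs1 (Gm9747), Irs2 (9530052E02Rik), Pik3r1 (Gm11016), Foxo1 (RP24-337A16.1) and Slc2a1 (Gm12868), and reads of such a pair cannot be told apart where strand was not used.

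Sequences just upstream of the start were read for 7 of the 9 genes from RefSeq (GRCm38.p6), as 12 windows of 250 bases. A window of each of Irs1, Irs2 and Pik3r1 is shown because the first 2 are the docking protein genes that took different courses and Pik3r1 encodes the subunit they recruit. Capitals mark 6 short motifs looked for on both strands, which are the FOXO core GTAAACA, the C/EBP palindrome TTGCGCAA, the E-box CACGTG, the cAMP response element TGACGTCA, the GC box GGGCGG and the CCAAT box CCAAT; neighbouring matches may overlap each other.
Irs1, chr1:82291440-82291689, minus strand: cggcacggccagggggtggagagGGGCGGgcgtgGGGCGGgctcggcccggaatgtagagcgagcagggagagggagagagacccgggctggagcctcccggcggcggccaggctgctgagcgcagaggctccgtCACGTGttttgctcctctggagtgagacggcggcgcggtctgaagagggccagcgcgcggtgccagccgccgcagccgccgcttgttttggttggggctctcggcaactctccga
Irs2, chr8:11008930-11009179, minus strand: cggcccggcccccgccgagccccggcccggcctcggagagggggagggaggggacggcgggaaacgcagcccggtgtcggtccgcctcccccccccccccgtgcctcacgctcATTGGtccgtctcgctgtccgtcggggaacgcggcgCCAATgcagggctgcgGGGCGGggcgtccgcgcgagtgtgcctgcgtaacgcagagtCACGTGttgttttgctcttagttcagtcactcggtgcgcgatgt
Pik3r1, chr13:101768218-101768467, minus strand: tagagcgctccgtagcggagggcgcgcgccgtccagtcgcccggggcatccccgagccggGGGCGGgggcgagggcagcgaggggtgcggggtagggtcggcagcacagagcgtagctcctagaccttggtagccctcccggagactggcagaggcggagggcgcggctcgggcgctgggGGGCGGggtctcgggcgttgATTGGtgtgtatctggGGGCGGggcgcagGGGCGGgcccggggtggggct
Irs1 and Irs2 each hold 1 E-box, starting 115 and 44 bases before the start, a motif present in 6.04% of 32536 such windows of all genes. The Pik3r1 window shown holds 4 GC boxes and 1 CCAAT box, which are common (33.0% and 33.8% of all windows). Another Pik3r1 window (chr13:101692631-101692880), not shown, holds none of the motifs and is 42.4% G and C. The FOXO core was found in 1 of the 12 windows, an Akt1 window (3.17% of all windows), and neither the C/EBP palindrome (0.166%) nor the cAMP response element (1.56%) was found in any. The 3 windows printed are rich in G and C, at 72.4%, 72.8% and 76.4%, against a median of 52.4% over all windows. A match is a description of letters and not of a bound site.

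From day 0 to day 2, 5 of the 9 genes rose past 2.5-fold in Ad-GFP cells and none fell by that much. These were Slc2a4, Irs2, Pik3r1, Foxo1 and Insr. Among all 11541 expressed genes, 8.38% were higher and 12.7% lower by that cutoff, and the median log2 ratio was 0.15 over all genes and 2.01 over the 9. Slc2a4 passed the 1 RPKM level only through the Ad-GFP day 2 library. Its place in the counts and medians that use that library therefore supports nothing. In Ad-Cre cells, 2 of the 9 were higher (Slc2a4 and Pik3r1) and 1 was lower (Irs1), beside 8.66% and 10.0% of all genes. The median there was 0.38 over the 9 and -0.01 over all genes. With both trends divided out 4 were higher (Slc2a4, Pik3r1, Insr and Foxo1) and 0 lower, beside 6.45% and 9.31% of all genes. Before induction 0 of the 9 genes were past the cutoff in either direction, beside 1.27% of all genes higher and 4.12% lower in Ad-Cre, shares at which few or none of 9 genes would be called. Foxo1, Irs1 and Irs2 were higher in Ad-Cre by 1.65-fold, 1.52-fold and 1.51-fold, each ratio above those of at least 93% of expressed genes. At day 2, 5 of the 9 were lower in Ad-Cre (Irs2, Slc2a4, Irs1, Insr and Akt2) and 0 higher, beside 10.1% and 8.14% of all genes, with a median log2 ratio of -1.38 over the 9 and -0.16 over all genes. With both trends divided out 3 of the 9 were lower (Irs2, Slc2a4 and Akt2), beside 6.07% of all genes, and the median over the 9 was -0.52. Irs2, Slc2a4 and Insr were both higher at day 2 in Ad-GFP and lower in Ad-Cre at that day, both of which rest on the same Ad-GFP library. These were 3 of the 5 that rose, and of the 967 genes that rose among all expressed genes 449 (46.4%) were also lower in Ad-Cre, so nothing about the 9 is read from it. Insr dropped out with both trends divided out, which left 2 of the 5, beside 43.7%. The 4 comparisons share libraries, each library entering 2 of them, so their values are set side by side and not counted as separate evidence.

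**Figure D2:**
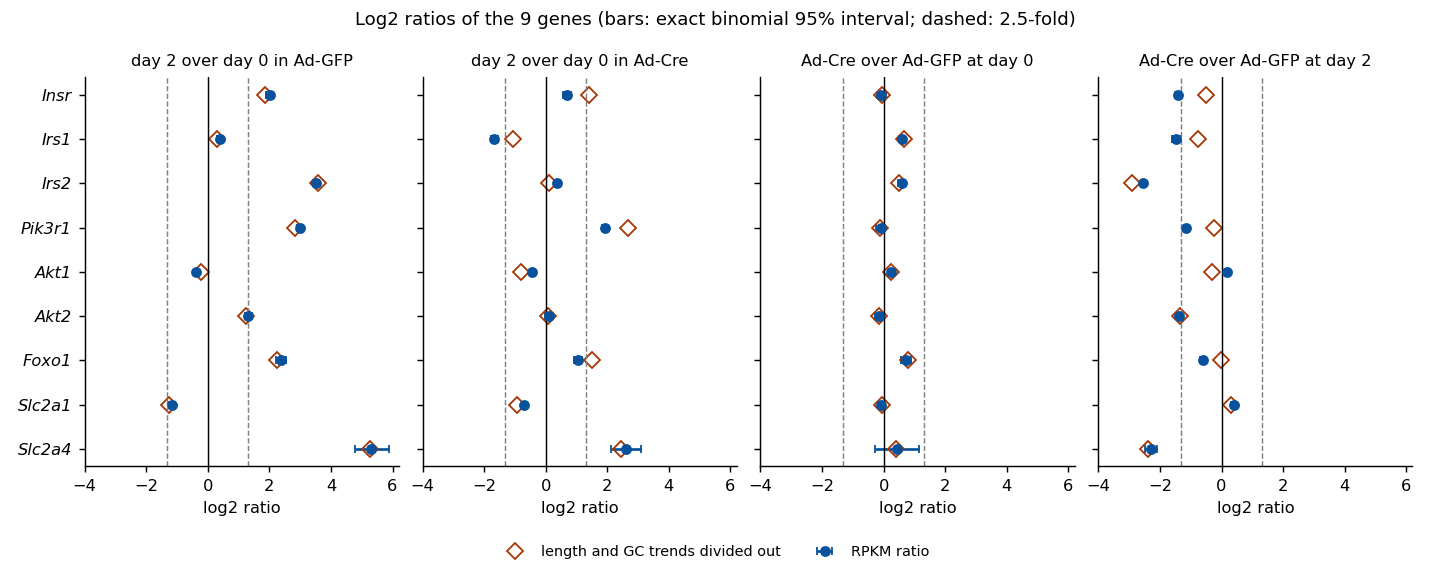
Log2 ratios (horizontal axes) of the 9 genes in the 4 comparisons; filled circles are ratios of deposited RPKM with exact binomial 95% intervals, open diamonds the same with both trends (length, GC content) divided out, and dashed lines mark 2.5-fold. At day 2 the Ad-Cre ratios of Irs2 and Slc2a4 stay beyond the dashed line in both forms, whereas those of Insr and Irs1 move to -0.52 and -0.77.

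The receptor gene Insr, which encodes the insulin receptor, was at 4.74 RPKM (762 reads) in Ad-GFP at day 0 and 19.1 RPKM (4108 reads) at day 2, and at 4.48 RPKM (818 reads) and 7.22 RPKM (1218 reads) in Ad-Cre. Only the Ad-GFP library at day 2 stood high. The rise in Ad-GFP was 4.03-fold (log2 2.01, interval 1.90 to 2.12) and took Insr from above 31.4% of expressed genes to above 71.1%. In Ad-Cre the level at day 2 was 1.61 times that at day 0 (log2 0.69, interval 0.56 to 0.82), short of the cutoff. At day 0 the arms were nearly level (log2 -0.08, interval -0.22 to 0.07). At day 2 Insr was 2.65-fold lower in Ad-Cre (log2 -1.40, interval -1.50 to -1.31), but its transcript lies in the longest bin of genes, whose median was -0.81, and with both trends divided out the log2 ratio was -0.52, which is not past the cutoff. Scaling by edgeR's TMM factors alone gave -1.25, also short of it. The Ad-Cre change from day 0 to day 2 became 1.40 in the same way, which is past it.

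The docking protein genes took different courses. Irs2 was at 13.1 RPKM (903 reads) in Ad-GFP at day 0 and 150.4 RPKM (13866 reads) at day 2, and at 19.7 RPKM (1542 reads) and 25.6 RPKM (1855 reads) in Ad-Cre. Its Ad-GFP level at day 2 was the highest of the 9 genes in that library and lay above 98.6% of expressed genes. Irs2 rose 11.5-fold in Ad-GFP (log2 3.52, interval 3.43 to 3.62), while in Ad-Cre the ratio was 1.30 (log2 0.38, interval 0.28 to 0.48). At day 2 Irs2 was 5.86-fold lower in Ad-Cre (log2 -2.55, interval -2.62 to -2.48), a ratio under which only 0.906% of expressed genes lay. Dividing out the trend over length gave -2.11, and dividing out both trends gave -2.90, since Irs2 is GC-rich (63.6%). At day 0 the direction was the opposite, with Irs2 1.51-fold higher in Ad-Cre (log2 0.59, interval 0.47 to 0.71).

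Irs1, the other docking protein gene, was at 9.86 RPKM (1553 reads) and 13.1 RPKM (2749 reads) in Ad-GFP at day 0 and day 2, and at 14.96 RPKM (2675 reads) and 4.69 RPKM (774 reads) in Ad-Cre. The Ad-Cre libraries held both its highest and its lowest level. In Ad-GFP the day 2 level was 1.32 times that of day 0 (log2 0.41, interval 0.32 to 0.50), whereas in Ad-Cre Irs1 fell 3.19-fold (log2 -1.68, interval -1.79 to -1.56). With both trends divided out that fall was -1.06, no longer past the cutoff. At day 0 Irs1 was 1.52-fold higher in Ad-Cre (log2 0.60, interval 0.51 to 0.69), and at day 2 it was 2.79-fold lower (log2 -1.48, interval -1.59 to -1.36). The day 2 ratio was -0.77 with both trends divided out, again short of the cutoff but of the same sign.

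The balance of the pair within a library does not depend on the library total, although it does on length and GC content. Irs2 was 1.33 times Irs1 in RPKM in Ad-GFP at day 0 (interval 1.22 to 1.44) and 1.32 times in Ad-Cre (interval 1.24 to 1.40), so the arms could not be told apart before induction. At day 2 it was 11.5 times Irs1 in Ad-GFP (interval 11.1 to 12.0) and 5.47 times in Ad-Cre (interval 5.03 to 5.96). The lead of Irs2 widened in both arms, 8.68-fold in Ad-GFP and 4.16-fold in Ad-Cre. The widening was 9.72-fold and 2.27-fold with both trends divided out. The summed level of the pair was 163.4 RPKM in Ad-GFP at day 2 against 30.3 RPKM in Ad-Cre.

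**Figure D3:**
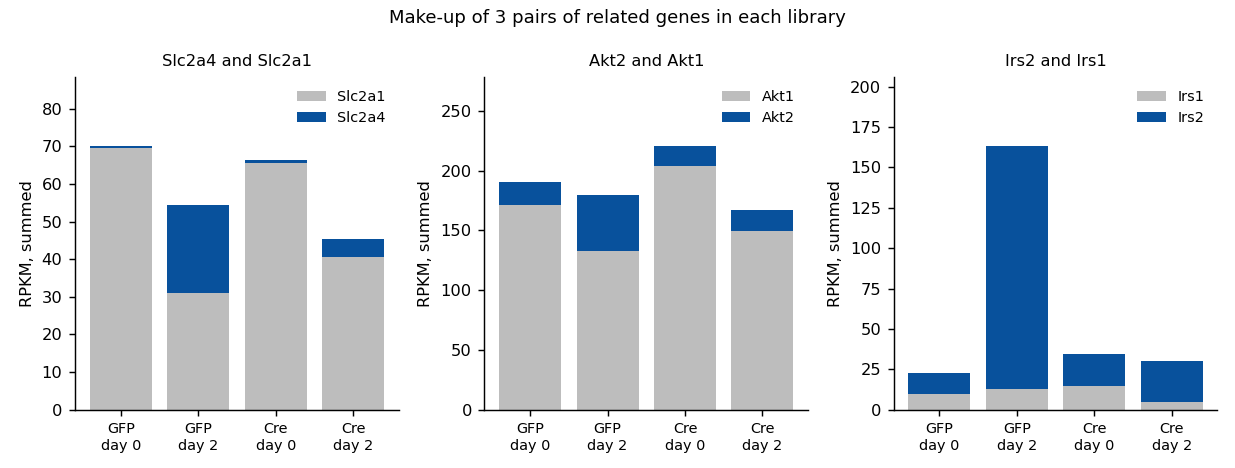
Summed RPKM (vertical axes, from 0) of 3 pairs of related genes in each of the 4 libraries, split by gene. Slc2a4 made up 43.1% of the Slc2a4 and Slc2a1 sum in Ad-GFP at day 2 and 10.7% in Ad-Cre, and Irs2 made up 92.0% and 84.5% of the Irs2 and Irs1 sum.

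Pik3r1, which encodes the regulatory subunit that holds and stabilises the PI3K catalytic subunit, was at 7.37 RPKM (876 reads) and 58.6 RPKM (9319 reads) in Ad-GFP, and at 6.87 RPKM (927 reads) and 26.2 RPKM (3267 reads) in Ad-Cre, at day 0 and day 2. It rose past the cutoff in both arms, 7.96-fold in Ad-GFP (log2 2.99, interval 2.89 to 3.09) and 3.81-fold in Ad-Cre (log2 1.93, interval 1.83 to 2.04). The log2 changes with both trends divided out were 2.84 and 2.66, which lie closer together. At day 0 the interval of the ratio between the arms held 0 (log2 -0.10, interval -0.24 to 0.03). At day 2 Pik3r1 was 2.24 times lower in Ad-Cre (log2 -1.16, interval -1.22 to -1.10), short of the cutoff, and -0.25 with both trends divided out. The shorter of its 2 deposited transcripts, which was not used, gave log2 ratios of 3.07 in Ad-GFP and 2.02 in Ad-Cre.

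Akt1, the kinase gene with the highest level of the 9 in 3 of the 4 libraries, was at 171.6 RPKM (7937 reads) and 133 RPKM (8224 reads) in Ad-GFP, and at 204 RPKM (10707 reads) and 149.1 RPKM (7233 reads) in Ad-Cre, at day 0 and day 2. No pair of these libraries differed by the cutoff in Akt1. From day 0 to day 2 the log2 ratio was -0.37 in Ad-GFP (interval -0.41 to -0.32) and -0.45 in Ad-Cre (interval -0.49 to -0.41). Between the arms it was 0.25 at day 0 and 0.17 at day 2, and the day 2 ratio changed sign to -0.31 with both trends divided out, so no direction is given for it.

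Akt2, the AKT gene best known for its part in insulin-stimulated glucose uptake, was at 18.6 RPKM (1014 reads) and 46.6 RPKM (3388 reads) in Ad-GFP, and at 16.7 RPKM (1033 reads) and 17.9 RPKM (1023 reads) in Ad-Cre. The Ad-GFP library at day 2 stood above the other 3, which lay close together. Its Ad-GFP ratio fell just short of the cutoff (log2 1.32, interval 1.22 to 1.43), whereas the Ad-Cre interval held 0 (log2 0.10, interval -0.03 to 0.23). At day 2 Akt2 was 2.60-fold lower in Ad-Cre (log2 -1.38, interval -1.48 to -1.28), -1.35 with both trends divided out, and short of the cutoff at -1.05 with the trend over length alone and at -1.22 under TMM scaling. The interval reaches across the cutoff, and the match to Akt2-ps applies to each of these values. Akt2 stood at 0.109 times Akt1 in RPKM in Ad-GFP at day 0 and 0.350 times at day 2, and at 0.0820 and 0.120 times in Ad-Cre.

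Foxo1, the transcription factor that AKT restrains, was at 4.21 RPKM (402 reads) and 21.9 RPKM (2794 reads) in Ad-GFP, and at 6.96 RPKM (754 reads) and 14.3 RPKM (1432 reads) in Ad-Cre. The day 2 libraries stood above the day 0 libraries in both arms. The gene rose 5.20-fold in Ad-GFP (log2 2.38, interval 2.23 to 2.53), and its ratio in Ad-Cre was 2.06 (log2 1.04, interval 0.91 to 1.17), or 1.49 on the log2 scale with both trends divided out, which is past the cutoff. Before induction Foxo1 was 1.65-fold higher in Ad-Cre (log2 0.72, interval 0.55 to 0.90). At day 2 it was 1.53-fold lower (log2 -0.61, interval -0.71 to -0.52), a difference that came to -0.003 with both trends divided out.

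The glucose transporter genes had ratios of opposite sign. Slc2a4 was at 0.598 RPKM (29 reads) in Ad-GFP at day 0 and 23.5 RPKM (1525 reads) at day 2, and at 0.799 RPKM (44 reads) and 4.85 RPKM (247 reads) in Ad-Cre. Both day 0 libraries were below 1 RPKM, and the Ad-GFP library at day 2 stood alone at the top. Slc2a4 rose 39.3-fold in Ad-GFP (log2 5.30, interval 4.77 to 5.88) and 6.07-fold in Ad-Cre (log2 2.60, interval 2.13 to 3.10). At day 2 it was 4.84-fold lower in Ad-Cre (log2 -2.28, interval -2.48 to -2.08), and -2.37 with both trends divided out. At day 0 the reads were too few to tell the arms apart (log2 0.42, interval -0.29 to 1.15).

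Slc2a1, the gene of the basal transporter, was at 69.6 RPKM (3077 reads) and 31.0 RPKM (1834 reads) in Ad-GFP, and at 65.7 RPKM (3297 reads) and 40.6 RPKM (1884 reads) in Ad-Cre. Both day 2 libraries were below both day 0 libraries. Its day 2 to day 0 ratio on the log2 scale was -1.16 in Ad-GFP (interval -1.25 to -1.08) and -0.69 in Ad-Cre (interval -0.78 to -0.61), both short of the cutoff. At day 2 Slc2a1 was 1.31-fold higher in Ad-Cre (log2 0.39, interval 0.30 to 0.48; 0.32 with both trends divided out). In Ad-GFP, Slc2a4 went from 0.00859 times Slc2a1 in RPKM at day 0 (interval 0.00574 to 0.0124) to 0.758 times at day 2 (interval 0.708 to 0.812). In Ad-Cre it went from 0.0122 times (interval 0.00882 to 0.0164) to 0.119 times (interval 0.104 to 0.137), so Slc2a1 still led 8.37-fold there at day 2.

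**Figure D4:**
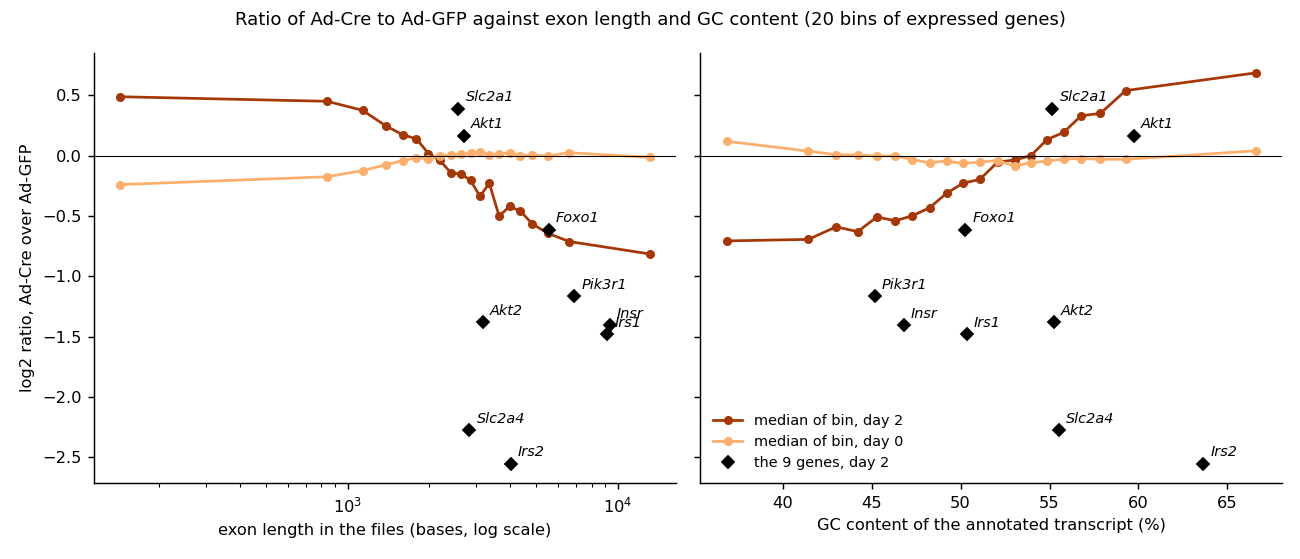
Ad-Cre to Ad-GFP ratio on the log2 scale (vertical axis) against exon length (left, log axis) and transcript GC content (right); lines join the medians of 20 bins of expressed genes at day 0 and day 2, and diamonds are the 9 genes at day 2. At day 2 the medians fall from 0.49 to -0.81 with length and climb from -0.71 to 0.69 with GC content; Foxo1 lies close to the line over length, and Irs2, Slc2a4 and Akt2 lie well below both lines.

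The other genes of the pathway were taken as 9 lists with 103 genes, 86 of them expressed. Counts per list, given further below, are to be read beside the shares of all genes printed here. From day 0 to day 2, 13 of the 86 were past the cutoff upward and 12 downward in Ad-GFP (15.1% and 13.95%, beside 8.38% and 12.7% of all genes), and 8 and 9 in Ad-Cre (9.30% and 10.5%, beside 8.66% and 10.0%). At day 0, 2 were higher and 4 lower in Ad-Cre (2.33% and 4.65%, beside 1.27% and 4.12% of all genes). At day 2, 4 were higher and 14 lower in Ad-Cre (4.65% and 16.3%, beside 8.14% and 10.1%), with a median log2 ratio of -0.15 against -0.16 over all expressed genes. With both trends divided out 7 were higher and 7 lower (8.14% each, beside 7.36% and 6.07%), and 6 genes (Mlxipl, Nr1h3, Pik3cb, Sh2b2, Sort1 and Trib3) were lower in both forms. Mlxipl and Nr1h3 passed the 1 RPKM level only through the Ad-GFP day 2 library, so their places in these counts support nothing.

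**Figure D5:**
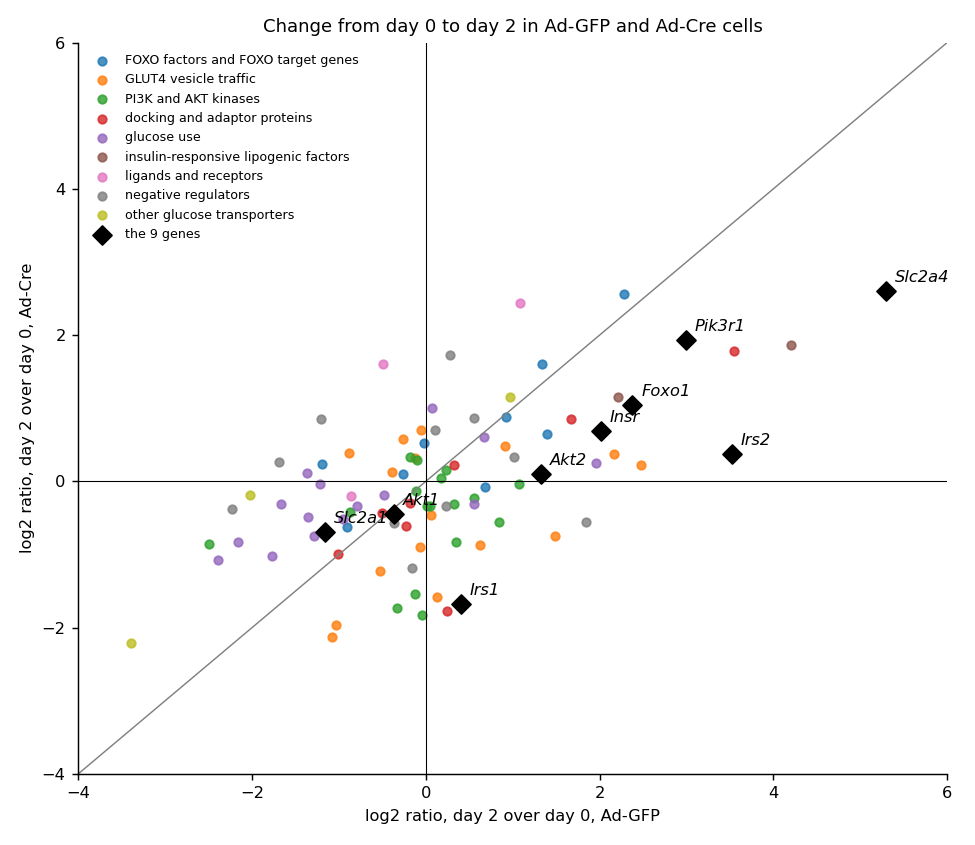
Log2 ratio of day 2 to day 0 in Ad-Cre (vertical axis) against that in Ad-GFP (horizontal axis) for the 9 genes (black diamonds) and the expressed genes of the 9 pathway lists (coloured points); Mlxipl, with 0 reads in Ad-GFP at day 0, has no ratio and is left out. The grey line marks equal ratios; Slc2a4, Irs2, Pik3r1, Foxo1, Insr and Akt2 lie to the right of 0 and below that line, and Irs1 lies below 0 in Ad-Cre alone.

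Upstream of the receptor, the insulin genes Ins1 and Ins2 had 0 reads in all 4 libraries, as had Igfbp1 among the FOXO targets; a count of 0 allows up to 3 reads. Of the 3 expressed ligand and receptor genes, 0 passed the cutoff in Ad-GFP and 2 rose in Ad-Cre. Igf2, a growth factor that also binds a form of the insulin receptor, was at 19.0 and 40.1 RPKM in Ad-GFP and at 20.8 and 112.7 RPKM in Ad-Cre, at day 0 and day 2. The Ad-Cre library at day 2 stood highest, 2.81-fold above Ad-GFP (log2 1.49, interval 1.43 to 1.55; 1.56 with both trends divided out). Igf1 was low throughout, at 1.28 and 0.911 RPKM in Ad-GFP and 0.355 and 1.08 RPKM in Ad-Cre, and was 3.61-fold lower in Ad-Cre at day 0 (log2 -1.85, interval -2.35 to -1.38).

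Of 9 expressed docking and adaptor genes, 2 rose and 1 fell in Ad-GFP, and 2 were lower in Ad-Cre at day 2. With both trends divided out 1 was lower there (Sh2b2), and Cbl came to -1.27. Sh2b2, the adaptor APS that binds the activated receptor, rose 11.7-fold in Ad-GFP, from 3.35 to 39.2 RPKM, and 3.44-fold in Ad-Cre, from 3.17 to 10.9 RPKM. It was 3.605-fold lower in Ad-Cre at day 2 (log2 -1.85, interval -1.99 to -1.72; -2.37 with both trends divided out). Cbl fell 3.42-fold in Ad-Cre from day 0 to day 2, from 3.73 to 1.09 RPKM. Cav1, the caveolin gene, rose 3.17-fold in Ad-GFP, from 57.9 to 183.6 RPKM, and was at 110.2 and 199 RPKM in Ad-Cre.

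The list of PI3K and AKT kinases holds 17 genes, which include regulatory subunits and genes around mTOR such as Rheb, Tsc1 and Tsc2. Of these, 0 rose and 1 fell in Ad-GFP, and 1 was higher and 2 were lower in Ad-Cre at day 2. With both trends divided out 3 were higher (Pik3cd, Pik3r3 and Rps6kb1) and 1 lower (Pik3cb) at day 2. In Ad-Cre 3 fell from day 0 to day 2, and 0 in that form. The median log2 ratio of the list in Ad-GFP was 0.01. None of the catalytic subunit genes Pik3ca, Pik3cb and Pik3cd rose in Ad-GFP with Pik3r1 (log2 0.17, -0.05 and -2.50). Pik3cb was at 3.41 and 3.31 RPKM in Ad-GFP and at 2.54 and 0.720 RPKM in Ad-Cre, a 4.60-fold difference between the arms at day 2 (log2 -2.20, interval -2.61 to -1.81; -1.42 with both trends divided out). Pik3cd fell 5.64-fold in Ad-GFP, from 5.71 to 1.01 RPKM, and was 3.68-fold higher in Ad-Cre at day 2. Mtor, the kinase downstream of AKT, was 2.59-fold lower in Ad-Cre at day 2, and -0.90 on the log2 scale with both trends divided out. Rictor, a subunit of the complex that phosphorylates AKT, fell 2.92-fold in Ad-Cre (log2 -1.55), or -0.80 with both trends divided out.

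Of 11 negative regulators, 1 rose and 2 fell in Ad-GFP, and 1 was higher (Socs1) and 1 lower (Trib3) in Ad-Cre at day 2. Once both trends were divided out, 0 were higher and 2 lower there (Trib3 and Eif4ebp1). Trib3, the pseudokinase that binds AKT, was at 22 and 79.2 RPKM in Ad-GFP and at 25.2 and 17.2 RPKM in Ad-Cre, 4.60-fold lower at day 2 (log2 -2.20, interval -2.32 to -2.08; -2.65 with both trends divided out). Only the Ad-GFP library at day 2 stood high for it. Socs1 fell 4.69-fold in Ad-GFP, from 11.2 to 2.39 RPKM, and was at 8.03 and 6.19 RPKM in Ad-Cre. Its day 2 ratio between the arms, 1.37 on the log2 scale, was 0.36 with both trends divided out, and its Ad-Cre change became -1.41, past the cutoff. Enpp1, which encodes an inhibitor of the receptor, fell 3.24-fold in Ad-GFP, from 6.42 to 1.98 RPKM, and was at 2.62 and 3.15 RPKM in Ad-Cre. Socs3, a feedback inhibitor of cytokine and insulin receptors, was at 27.1 and 11.8 RPKM in Ad-GFP and at 7.64 and 13.8 RPKM in Ad-Cre. Only the Ad-GFP library at day 0 stood high for it, 3.55-fold above Ad-Cre (log2 -1.83, interval -1.99 to -1.66; -1.85 with both trends divided out).

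Of 16 genes of GLUT4 vesicle traffic, 3 rose in Ad-GFP and 0 fell, none rose and 3 fell in Ad-Cre, and 4 were lower in Ad-Cre at day 2. Once both trends were divided out, 2 rose and 1 fell (Rhoq) in Ad-GFP, 2 fell in Ad-Cre, and only Sort1 was lower at day 2. Sort1, the gene of sortilin, which helps form GLUT4 vesicles, was at 4.05 and 22.6 RPKM in Ad-GFP and at 3.84 and 4.48 RPKM in Ad-Cre. It stood high in the same single library as Slc2a4, 5.04-fold above Ad-Cre at day 2 (log2 -2.33, interval -2.47 to -2.20; -1.71 with both trends divided out). Lnpep, the aminopeptidase IRAP that travels in these vesicles, rose 2.81-fold in Ad-GFP and was 4.55-fold lower in Ad-Cre at day 2, but with both trends divided out neither log2 ratio was past the cutoff (1.14 and -1.24). Tbc1d4, the AKT substrate AS160 that holds the vesicles back, rose 4.48-fold in Ad-GFP, from 1.89 to 8.46 RPKM, and was at 2.39 and 3.10 RPKM in Ad-Cre, a day 2 ratio that came to -0.78 with both trends divided out. Its paralog Tbc1d1 fell 2.99-fold in Ad-Cre (log2 -1.58; -1.19 with both trends divided out) and was at 11.7 and 12.7 RPKM in Ad-GFP. Its day 2 ratio between the arms was -1.47, or -1.02 with both trends divided out.

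Among 9 other glucose transporter genes, 3 were expressed, and 2 of these fell in Ad-GFP. Slc2a6, a lysosomal member of the family, was at 2.15 and 0.530 RPKM in Ad-GFP and at 6.41 and 5.63 RPKM in Ad-Cre, and was higher in Ad-Cre both at day 0 (2.98-fold) and at day 2 (10.6-fold, log2 3.41, interval 2.82 to 4.06). Slc2a10 fell in both arms, 10.5-fold in Ad-GFP and 4.64-fold in Ad-Cre, from levels of 3.14 and 3.08 RPKM. Neither transporter reached the level of Slc2a1 in any library.

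Of 15 expressed genes of glucose use, 1 rose and 6 fell in Ad-GFP, against 0 and 0 in Ad-Cre, and the median log2 ratios were -1.22 and -0.31. One of the 6 is Gapdh, which had only 57 and 24 reads in Ad-GFP. After division by both trends 7 fell in Ad-GFP and 1 in Ad-Cre (Eno1, log2 -1.53). Hk2, the hexokinase of insulin-responsive tissue, was the 1 that rose, 3.89-fold, from 8.65 to 33.7 RPKM, and was at 11.2 and 13.4 RPKM in Ad-Cre; its day 2 ratio between the arms, -1.33 on the log2 scale, was -0.88 with both trends divided out. Hk1 went the other way, from 43.0 to 8.19 RPKM in Ad-GFP and from 38.4 to 18.2 RPKM in Ad-Cre. The glycolytic genes Pkm and Tpi1 fell 4.48-fold and 2.58-fold in Ad-GFP, and were at 399.5 and 225.5 RPKM and at 155.8 and 169.1 RPKM in Ad-Cre. The difference between the arms in these changes was not tested.

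Of 9 expressed FOXO family and FOXO target genes, 3 rose in Ad-GFP and 0 fell, 2 rose in Ad-Cre, and 2 were lower in Ad-Cre at both days. Pdk4, which restrains the entry of pyruvate into the mitochondrion, was at 9.38 and 23.7 RPKM in Ad-GFP and at 2.18 and 6.65 RPKM in Ad-Cre, ratios of 2.53 and 3.05 from unequal levels. Its log2 changes with both trends divided out were 1.11 in Ad-GFP, short of the cutoff, and 1.92 in Ad-Cre. Sesn3 was also lower in Ad-Cre at day 0 (3.09-fold) and at day 2 (2.55-fold). Bcl6 rose in both arms, 4.85-fold and 5.92-fold, and Txnip rose 2.63-fold in Ad-GFP and was at 21.1 and 33.0 RPKM in Ad-Cre. After division by both trends, Bcl6 alone rose in Ad-GFP (Txnip came to 1.13 on the log2 scale) and Fbxo32 fell (-1.35). In that form neither Pdk4 nor Sesn3 was past the cutoff at day 2 (log2 -1.32 and -1.19).

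All 3 insulin-responsive lipogenic factors rose in Ad-GFP, but Nr1h3 and Mlxipl passed the 1 RPKM level only through the day 2 library in which they were high, so their count supports nothing. Srebf1, the gene of SREBP1, was at 48.7 and 226.2 RPKM in Ad-GFP and at 47.9 and 106.6 RPKM in Ad-Cre, a 4.64-fold rise in Ad-GFP against a ratio of 2.23 in Ad-Cre. Nr1h3, the gene of the receptor LXR alpha, rose from 5 reads (0.149 RPKM) to 123 reads (2.74 RPKM) in Ad-GFP and from 11 reads to 37 reads in Ad-Cre. Mlxipl, the gene of the glucose-sensing factor ChREBP, had 0 and 144 reads in Ad-GFP and 2 and 23 reads in Ad-Cre. At day 2 Mlxipl and Nr1h3 were 4.91-fold and 2.61-fold lower in Ad-Cre (log2 -2.30 and -1.38; -2.31 and -1.83 with both trends divided out).

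For each of the 7 genes past the cutoff in any comparison, the genes most like it were taken as the 3 with the smallest distance between centred log2(RPKM + 1) values over the 4 libraries, among 10701 genes. For Slc2a4 these were Fitm2, Slc1a5 and Adcy5 (distances 0.169, 0.188 and 0.280), of which Fitm2 was at 7.01 and 133.9 RPKM in Ad-GFP and at 8.64 and 26.7 RPKM in Ad-Cre. For Irs2 they were Cth, Cyp2f2 and Vldlr (0.210, 0.342 and 0.374), Cth being at 3.55 and 43.9 RPKM and at 6.43 and 8.22 RPKM. For Irs1 they were Ccng1, Tead1 and Ankib1 (0.0880, 0.117 and 0.129), for Insr 4930402H24Rik, Axin2 and Zhx1 (0.0651, 0.0715 and 0.0866), and for Pik3r1 Slc25a42, Rpusd3 and Cib2 (0.216, 0.250 and 0.290). For Foxo1 they were Timm9, Ptges2 and 2300009A05Rik (0.0379, 0.150 and 0.161), and for Akt2 Uqcrc2, Copg2 and Arhgap26 (0.0807, 0.0863 and 0.0869). Among the 9 genes themselves, Insr and Akt2 were the closest pair (0.515) and Slc2a1 and Slc2a4 the farthest apart (4.12). With 4 libraries many genes share a shape, and these distances are a description only.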

How the data were processed

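Reads of 50 bases were aligned by the authors to NCBI37/mm9 with the Illumina pipeline, and reads on RefSeq exons were counted. The deposited tables hold, for each of 29082 RefSeq transcripts, a raw read count and the RPKM the authors computed from it. The mapped totals and exon lengths behind the RPKM were recovered from the pairs of values. The submitters' processing notes name bedtools 2.16 and SICER 1.1. Kit notes name an Illumina DNA sample kit; the handling of reads with several matches and of strand is not given in the sources used here.

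Symbols were matched for 28436 transcripts (97.8%), using names from GRCm38.p6 tables. For each symbol the transcript with most reads over the 4 libraries was used. The ratios are of deposited RPKM with no pseudocount, with exact binomial (Clopper-Pearson) 95% intervals on the counts. Groups were set from the labels: 1 library for each arm and day. No test between conditions was made, and the 2.5-fold cutoff and the 1 RPKM limit follow the study's methods. All intervals cover counting error only, since reads without molecular identifiers are not independent molecules.

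GENCODE vM1 (NCBI37/mm9) gave positions and base composition; GC content was found for 94.0% of expressed genes. Trends over exon length and GC content are medians of 20 bins each, divided out in 5 rounds. Named genes were the 9 members, up to 4 per pathway list (past the cutoff in any comparison, at least 100 reads in the higher library, largest day 2 ratio of Ad-Cre to Ad-GFP first), the 3 genes most like each member past the cutoff, and genes of a count of 5 or fewer or singled out, chosen after their values were seen. The members and lists were chosen with earlier results of these data known, and 2 genes of the lists are not reported here or counted. Alternatives were 15 settings, including TMM factors (edgeR 4.0.16) and median-of-ratios size factors (DESeq2 1.42.0) in R 4.3.3. Ratios, intervals and trends were computed in Python 3.11.15 with numpy 2.4.6, pandas 2.3.3 and scipy 1.17.1. The ratios and intervals were tested on simulated counts, but the division by trends was not.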

Additional observations from a re-analysis of the deposited data

Results flagged for a closer look

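Results are listed here where the change from day 0 to day 2 had opposite signs in the 2 arms, or the ratio of Ad-Cre to Ad-GFP had opposite signs at the 2 days, with counting intervals that leave out 0 on both sides. With 1 library per condition the differences were not tested. Where reads are many, small ratios meet these conditions too. The share of all expressed genes that meet them was not computed, so nothing is read from the number of genes listed. Each value is the log2 ratio of the day 2 to day 0 change in Ad-Cre to that in Ad-GFP. All of them include the Ad-Cre day 2 library, and the same signs were looked up with its trends over length and GC content divided out.

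Among the 9 genes, Irs1 (-2.08) had opposite signs in both respects, with day 2 over day 0 ratios of 0.41 in Ad-GFP and -1.68 in Ad-Cre. Irs2 (-3.14), Foxo1 (-1.34) and Slc2a1 (0.47) had opposite signs between the days only, Irs2 and Foxo1 being higher in Ad-Cre at day 0 and lower at day 2, and Slc2a1 the reverse. With both trends divided out Irs1 and Irs2 still met these conditions, while Foxo1 (-0.003 at day 2) and Slc2a1 (-0.06 at day 0) had an interval that held 0.

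Of the other pathway genes, only the up to 4 named per list by the rule given above were looked at, and 14 of these were listed. Further list genes meet the conditions and are not listed here, such as Pdpk1 (day 2 over day 0 ratios of 0.84 in Ad-GFP and -0.56 in Ad-Cre). Trib3 (-2.40), Tbc1d1 (-1.70), Socs3 (2.06) and Tpi1 (1.49) had opposite signs in both respects. Lnpep (-2.24), Cbl (-2.02) and Igf1 (2.10) had them between the arms only. Tbc1d4 (-1.79), Hk2 (-1.71) and Rictor (-1.42) were higher in Ad-Cre at day 0 and lower at day 2, while Enpp1 (1.958), Socs1 (1.85), Pkm (1.34) and Hk1 (1.31) were lower at day 0 and higher at day 2. With both trends divided out 10 of the 14 still met the conditions in at least 1 of the respects given here, and Lnpep, Cbl, Rictor and Socs1 did not: the Ad-Cre change of Lnpep came to 0.001, the Ad-GFP change of Cbl to 0.04 and the day 2 ratios of Rictor and Socs1 to 0.001 and 0.36. Socs3 then kept the opposite signs between the arms only (day 2 ratio -0.24), and Tpi1 between the days only (Ad-Cre change -0.24).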

How the results depend on the processing

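No paired analysis was possible because each condition has 1 library, and no library can be left out. Over the alternatives that give a ratio, no called ratio of the 9 genes changed sign; the uncalled day 2 ratios of Akt1 (-0.31 to 0.35) and Foxo1 (-0.61 to 0.02) did. At day 2 the called log2 ratios of Ad-Cre to Ad-GFP ranged from -2.90 to -2.11 for Irs2, -2.37 to -2.06 for Slc2a4, -1.48 to -0.67 for Irs1, -1.40 to -0.52 for Insr and -1.39 to -1.05 for Akt2. The rise of Slc2a4 in Ad-GFP ranged from 3.94, with a pseudocount of 1 RPKM, to 5.34.

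The 5 of the 9 genes lower in Ad-Cre at day 2 became 3 under TMM factors, the sum of deposited counts, the interval bound past the cutoff, a pseudocount of 1 RPKM and trends over length and GC content, and 2 under median-of-ratios size factors, the trend over length and a 4-fold cutoff. Higher in Ad-Cre from day 0 to day 2 were 4 under either trend and 1 at 4-fold, and lower 0 under each of these 3. Of all genes, 6.98% were higher and 9.13% lower in this comparison under the trend over length. The shares were 6.45% and 9.31% under both trends, and 3.64% and 4.37% at 4-fold. In Ad-GFP, 1 was lower at 2-fold and under the trend over length. The cause of these changes was not tested.

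The 14 pathway list genes lower in Ad-Cre at day 2 became 8 (TMM, size factors, interval bound, length), 9 (sum of counts), 7 (both trends), 6 (pseudocount) and 5 (4-fold). The 4 higher became 7 (size factors, both trends), 8 (length), 9 (no filter), 10 (2-fold), 2 (pseudocount) and 1 (4-fold). At day 0, the 2 higher became 0 (interval bound, pseudocount), 1 (4-fold, mean RPKM of the 4 libraries over 1) and 4 (no filter), and the 4 lower became 7 (2-fold), 1 (4-fold) and 10 (no filter). From day 0 to day 2 the 12 lower became 19 at 2-fold and 7 at 4-fold, and the 13 higher 7 at 4-fold, in Ad-GFP. In Ad-Cre, the 8 higher became 3 (4-fold) and 4 (pseudocount), and the 9 lower 3 (4-fold) and 5 (pseudocount).

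The shares of all genes moved as follows, given as higher then lower. At 2-fold the changes over time were 14.4% higher in Ad-GFP and, for Ad-Cre, 14.5% and 16.1%, with 2.41% and 6.24% between the arms at day 0, and 12.7% and 17.9% at day 2. At 4-fold they were 3.71% and 7.71%, 3.64% and 4.37%, 0.477% and 2.21%, and 3.42% and 3.10% in that order. With the interval bound they were 5.32% higher in Ad-GFP, 5.00% and 6.60% in Ad-Cre, 0.598% and 2.30% at day 0, and 5.02% and 5.89% at day 2. With a pseudocount they were 5.26% higher in Ad-GFP, 5.13% and 5.78% in Ad-Cre, 0.719% and 1.76% at day 0, and 5.08% and 4.85% at day 2. With no filter, 16.5% were higher in Ad-Cre from day 0 to day 2, 7.01% higher and 10.2% lower at day 0, and 17.3% higher at day 2. With the trend over length 6.44%, and with both trends 6.07%, were lower at day 2.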

Other observations

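Gapdh, a gene that nearly all cells use and whose processed pseudogenes are many, was listed at only 2.69 and 0.848 RPKM in Ad-GFP and at 2.12 and 1.71 RPKM in Ad-Cre, beside 484.5 RPKM for Pkm in Ad-GFP at day 0; it was singled out after its values were seen. How reads with several matches were counted is not given in the sources used here, and whether the same applies to Akt2 was not tested.

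The transcripts of Akt2 and Akt1 that were not used gave close values, with log2 ratios of day 2 to day 0 in Ad-GFP of 1.40 for Akt2, past the cutoff where the transcript used was short of it, and -0.37 for Akt1.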
